A study of Rattus norvegicus with 24 samples.

Results

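The response to benzylpiperazine (BZP) was followed in 6 of the 24 arrays of a study on piperazine designer drugs. Rat primary hepatocytes in collagen sandwich culture, where the cells sit between collagen layers, were left for 24 h after seeding. They were then exposed for 24 h to 625 µM BZP (3 samples) or to 0.1% DMSO alone (3 samples). The members were chosen by sample title: the 3 samples titled as BZP treatment and the 3 controls whose titles name them, which gave 3 pairs. The remaining 18 arrays are the same design for TFMPP (trifluoromethylphenylpiperazine, 35 µM), MeOPP (methoxyphenylpiperazine, 522 µM) and MDBP (methylenedioxybenzylpiperazine, 467 µM), with 3 pairs each. Each drug was given at its EC20, per the labels, so the concentrations differ between drugs. The labels give no strain, sex or age of the rats, and do not say whether replicates came from separate animals or cultures. The p-values thus speak to the variation among pairs, part of which may be technical. Expression was read on an Affymetrix rat array from total RNA and is given as log2 values, so a difference of 1 is a doubling. A change below is BZP minus its paired control, averaged over the 3 pairs, with the standard error (SE) of the linear model. The model took its spread from the 12 pairs of all 4 drugs together. An SE or p-value thus does not measure the spread of the 3 BZP pairs alone. A gene was called higher or lower at a limma adjusted p under 0.05 over all 31042 probe sets.

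BZP is a stimulant that acts on monoamine signalling in the brain. Hepatocytes carry the tasks that set the liver apart: they make bile acids and plasma proteins, burn fatty acids, break down amino acids, form glucose and urea, and detoxify foreign compounds through cytochromes P450 and conjugating enzymes. Cultured hepatocytes lose part of this programme with time. Cholesterol synthesis rises when sterols in the cell run low, and bile acid synthesis draws on cholesterol as its substrate.

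Array medians ran from 4.454 to 4.524. Of 57 control probe sets, limma called 0 with BZP, and 0 passed an unadjusted p under 0.05. Albumin (Alb), the main secreted protein of hepatocytes, read 14.08, 14.07 and 14.06 in the controls of pairs 1, 2 and 3 and 14.07, 14.05 and 14.04 with BZP, and the highest value on any array was 14.1. The mean level of 9 hepatocyte markers was 13.04 to 13.2 in the control arrays and 12.64 to 13.05 in the BZP arrays. Cholangiocyte markers read 3.83 to 4.0 and 3.83 to 3.94, stellate cell markers 4.57 to 5.17 and 4.44 to 5.0, endothelial markers 4.63 to 6.44 and 4.67 to 6.04, and Kupffer cell and leukocyte markers 5.7 to 6.59 and 5.61 to 6.27, in controls and BZP in turn. Among Kupffer cell and leukocyte markers, Cd68 and Cd163 were called higher and Cd14 and Cd74 lower, of 13 measured. Of 15 stellate markers 3 were lower (Col3a1, Rgs5 and Pdgfra), of 10 endothelial markers 1 was lower (Eng), and of 10 cholangiocyte markers 0 were called. Of these 8, Col3a1 and Rgs5 kept the call without any single pair. Fewer cells of a type and less RNA per cell cannot be told apart in such bulk samples.

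With BZP, 2867 of 31042 probe sets passed the threshold (9.24%), 1476 higher (4.75%) and 1391 lower (4.48%). Among them 2848 had 1 sign in the 3 pairs, and at least 2-fold changes numbered 109 up (0.351%) and 266 down (0.857%). Counted as genes, 947 of 14217 rose (6.66%) and 848 fell (5.96%), and these 2 shares are the background for each gene group below. The changes of any 2 BZP pairs correlated across genes at 0.48 to 0.61, as a description, since genes are not independent replicates. The calls rest on the pairing that the control titles give. In a fit without pair terms 38 probe sets passed, all of them among the 2867, and without pair 3 the count was 1461. Of 299 called genes in the lists used below, 153 kept the call whichever single pair was left out. Where a gene named below lost it, this is stated.

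Gpnmb, a glycoprotein of lysosomes and of stressed or lipid-laden cells, rose most. Its controls read 7.32, 7.15 and 6.98 and the BZP arrays 9.91, 9.91 and 9.66, so the groups lay more than 2 log2 units apart. The rise was 2.68 ± 0.17 (SE, n = 3 pairs; 6.4-fold; limma adjusted p = 8.87e-07). Fads1, the delta-5 fatty acid desaturase, went from 4.43, 3.87 and 7.11 to 7.40, 6.91 and 8.58, with the control of pair 3 far above the other controls (2.49 ± 0.25; 5.62-fold; adjusted p = 1.51e-05). Rragd, a Rag GTPase that relays amino acid supply at the lysosome, went from 4.02, 4.26 and 2.96 to 6.29, 6.16 and 5.60 (2.27 ± 0.24; 4.81-fold; adjusted p = 2.74e-05). Sdcbp2 (syntenin-2), a PDZ-domain scaffold protein, read 6.72, 6.21 and 6.14 in controls and 8.76, 8.26 and 8.73 with BZP (2.23 ± 0.18; 4.68-fold; adjusted p = 2.98e-06). Ampd3, an AMP deaminase, rose by 2.02 ± 0.28 (adjusted p = 0.000272). Rab30, a Rab GTPase, rose by 1.64 ± 0.11, and Stx3, a syntaxin of membrane fusion, by 1.54 ± 0.16. The annexins Anxa5 and Anxa2, calcium-dependent membrane-binding proteins, rose by 1.55 ± 0.18 and 1.52 ± 0.19. Ndrg1, a stress-responsive gene also raised by hypoxia, rose by 1.65 ± 0.26, Nabp1, a single-strand DNA-binding protein, by 1.61 ± 0.24, and Csrp3, a muscle LIM protein, by 1.52 ± 0.29. Msmo1, Idi1 and Acat2 of sterol synthesis complete the 15 largest rises, each of which kept its call without any single pair.

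The deepest fall was in Slc10a1, which takes up bile acids together with sodium, from 9.76, 10.52 and 10.89 to 7.01, 6.95 and 8.63 (-2.86 ± 0.24; 7.25-fold lower; adjusted p = 3.68e-06). Sult2a6, a sulfotransferase of bile acids and steroids, went from 6.82, 6.85 and 9.25 to 4.99, 2.75 and 6.76 (-2.81 ± 0.35; adjusted p = 9.81e-05). Bhmt and its paralogue Bhmt2, methyltransferases of homocysteine and methionine handling, changed by -2.53 ± 0.28 and -2.07 ± 0.18. Ttc36, a liver tetratricopeptide repeat protein, changed by -2.47 ± 0.20, and Uroc1, the urocanase of histidine breakdown, by -2.40 ± 0.22. Also among the 15 largest falls were Acsm5, a medium-chain acyl-CoA synthetase, at -2.13 ± 0.17, Tm4sf4, a tetraspanin-like membrane protein, at -2.16 ± 0.17, and Fbp1, the gluconeogenic fructose bisphosphatase, at -2.07 ± 0.17. Fbxl17l1, an F-box-like gene, changed by -2.21 ± 0.20. The rest were Cyp8b1 and the cytochromes P450 taken up below. In the plot of the largest changes, the 3 pairs lie on the same side of 0 for each gene.

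**Figure D1:**
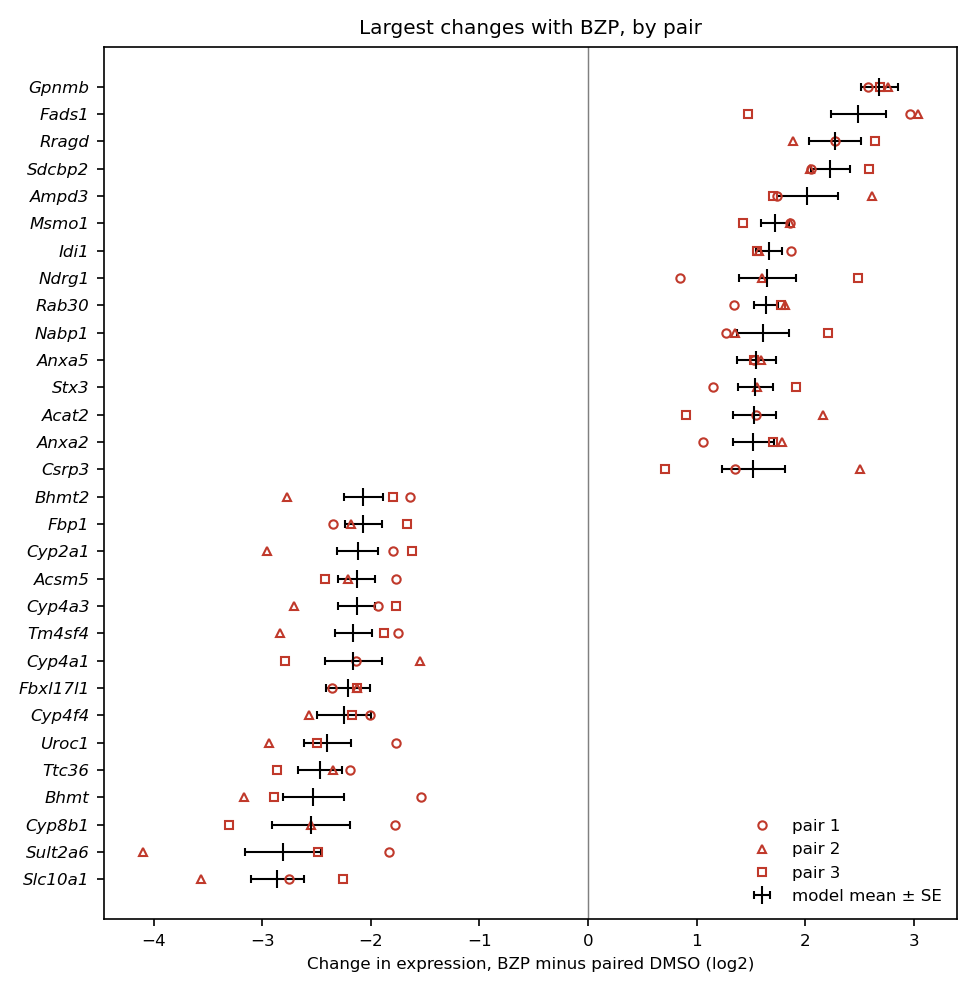
Change in expression (BZP minus paired DMSO, log2) of the 15 genes that rose most and the 15 that fell most, with each of the 3 pairs as an open symbol and the model mean ± SE as a black bar. Gpnmb stands at 2.68 at the top and Slc10a1 at -2.86 at the bottom.

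Lysosomal genes rose. Of 25 measured hydrolases and membrane proteins of the lysosome, 11 were higher (44.0%, against 6.66% of all genes) and 1 was lower, with a median of 0.24 against 0.01 for all genes. The 11 include Gpnmb. Npc2, which carries cholesterol out of the lysosome, read 9.09, 9.67 and 9.58 in controls and 9.86, 10.50 and 10.26 with BZP (0.76 ± 0.09; adjusted p = 5.02e-05). The tetraspanin Cd63 rose by 0.66 ± 0.09 and Tpp1, a lysosomal peptidase, by 0.62, and the protease Ctsh fell, at -0.70 ± 0.12. The count fell to 5 without pair 1 and 5 without pair 2. Of 15 subunits of the V-ATPase, the proton pump that acidifies lysosomes, 7 were higher (46.7%) and 0 lower, with list medians of 0.34, 0.36 and 0.33 in the 3 pairs. Atp6v0b rose by 0.71 ± 0.11, Atp6v1d by 0.67 ± 0.09 and Atp6v1b2 by 0.64 ± 0.10. Without pair 3, 4 subunits passed, and Atp6ap2 (0.51 ± 0.11) was no longer among them.

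Among 18 genes of autophagy and nutrient signalling, the 5 that rose (27.8%) were the Rag GTPases Rragd and Rragc and the folliculin group Flcn, Fnip1 and Fnip2. Folliculin and its partners Fnip1 and Fnip2 act on the Rag GTPases at the lysosome surface. Flcn went from 9.12, 7.73 and 8.03 to 9.75, 9.23 and 9.13 (1.07 ± 0.13; 2.11-fold; adjusted p = 6.49e-05), and Fnip1 from 8.52, 7.45 and 5.90 to 8.97, 8.24 and 7.73 (1.02 ± 0.19; adjusted p = 0.00311). Fnip2 rose by 0.68 ± 0.11 and Rragc by 0.58 ± 0.11. The autophagy genes proper stayed small and uncalled, with Sqstm1 at 0.32 ± 0.10, Gabarapl1 at 0.13 ± 0.12, Ulk1 at -0.01 ± 0.10 and Tfeb at -0.17 ± 0.11.

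Fatty acid and triglyceride synthesis rose in 12 of 26 measured genes (46.2%) and fell in 2, with a median of 0.34. Fasn, the fatty acid synthase, read 6.99, 6.26 and 8.00 in controls and 8.10, 8.68 and 8.84 with BZP (1.46 ± 0.24; 2.74-fold; adjusted p = 0.00108). Pnpla3, a lipase of lipid droplets, rose by 1.41 ± 0.20, Acsl3, which activates fatty acids, by 1.11 ± 0.17, and Srebf1, which switches on fatty acid genes, by 1.02. Gpam, the acyltransferase that starts glycerolipid synthesis, rose by 0.75 ± 0.12. Elovl2, an elongase of long polyunsaturated fatty acids, fell, at -0.95. In cholesterol synthesis 13 of 17 genes rose, 8 without pair 2, and 0 fell (median 0.77, with 0.79, 1.39 and 0.40 in the pairs, against 0.80, 0.59 and 0.67 with TFMPP, MeOPP and MDBP), and in bile acid synthesis and transport 12 of 20 fell and 1 rose (median -0.81, against -0.51, -0.59 and -0.94). Cyp7a1, which sets the pace of bile acid synthesis, fell from 5.38, 4.57 and 9.13 to 4.39, 3.78 and 6.41 (-1.50 ± 0.32; adjusted p = 0.00651), and without pair 3, whose control stood far above the others, it read -0.89 and was not called.

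Genes of the amino acid response differed between pairs. This response, driven by the transcription factor Atf4, raises asparagine and serine synthesis when amino acids run short or the cell is stressed. Of 20 Atf4 targets and stress regulators, 4 were higher (20.0%; Atf4, Atf3, Asns and Chac1) and 1 lower (Cth, a cysteine-forming enzyme). Asns, the asparagine synthetase, read 8.39, 7.94 and 7.35 in the controls and 8.59, 8.96 and 9.06 with BZP. The control was highest in pair 1 and lowest in pair 3 while the BZP arrays lay close together, and the change was 0.20 in pair 1, 1.02 in pair 2 and 1.71 in pair 3 (0.98 ± 0.25; adjusted p = 0.02). Chac1, a glutathione-degrading enzyme, read 7.34, 7.27 and 6.76 in controls and 7.36, 8.40 and 8.24 with BZP (0.87 ± 0.25; adjusted p = 0.0387). Atf3, a stress-induced transcription factor, went from 10.00, 8.19 and 7.28 to 10.23, 9.35 and 9.19 (1.10 ± 0.28; adjusted p = 0.0189). The list median was -0.09, 0.22 and 0.79 in pairs 1, 2 and 3. Of 10 genes of serine, glycine and one-carbon synthesis 4 rose (40.0%) and 0 fell, with pair medians of 0.02, 0.80 and 1.02. Psat1, a serine synthesis aminotransferase, rose by 1.33 ± 0.32, Mthfd2, a mitochondrial folate enzyme, by 1.09 ± 0.25, Phgdh, the first enzyme of serine synthesis, by 0.85 ± 0.25, and Psph, the last, by 0.75 ± 0.16. Without pair 3 none of these 8 risers was called: Asns read 0.61, Chac1 0.57, Atf3 0.70, Atf4 0.26, Psat1 0.85, Mthfd2 0.59, Phgdh 0.48 and Psph 0.58. Without pair 2, Mthfd2 and Psph were the 2 that passed. Ddit3, which encodes the stress factor CHOP, stood at 0.05 ± 0.22 and Trib3 at 0.61 ± 0.23, both uncalled. Trib3 passed without pair 1, at 0.98. Of 18 cytosolic aminoacyl-tRNA synthetases 1 was called (Sars1, 0.63 ± 0.13). Without pair 1 the count was 6, and without pair 2 or pair 3 it was 0, Sars1 included. With MDBP the Atf4 list medians were -0.09, 0.41 and 0.64. Pair 3 of MDBP and pair 3 of BZP were placed in the same cell preparation. Preparations, here and below, were inferred from the control arrays and are not given by the labels.

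**Figure D2:**
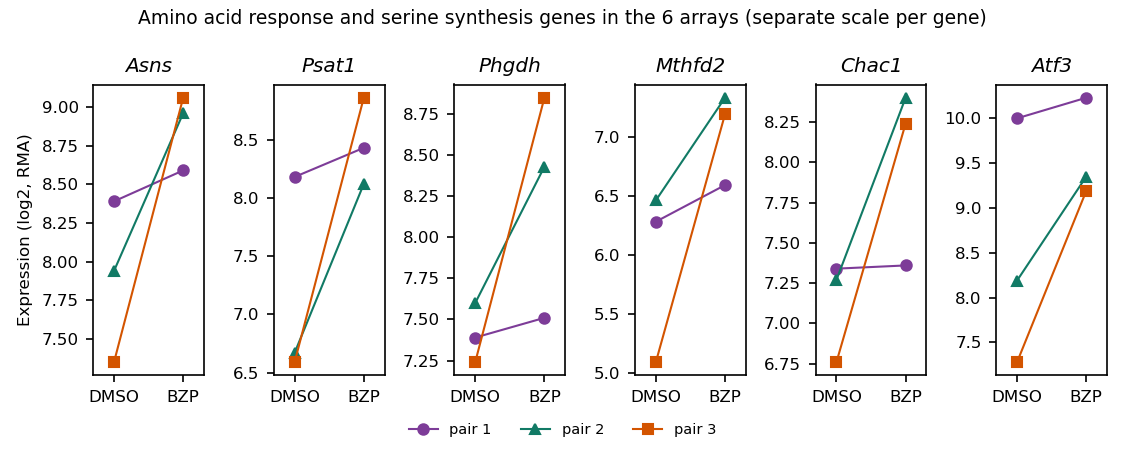
Log2 expression of 6 genes of the amino acid response and of serine synthesis in the 3 DMSO and 3 BZP arrays, with a line for each pair and a separate scale for each gene. The control of Asns stands at 8.39 in pair 1 and 7.35 in pair 3 while the BZP arrays lie between 8.59 and 9.06.

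A promoter is shown for Chac1 because its upstream sequence holds the amino acid response element TGATGCAA, on the reverse strand TTGCATCA, and because its 3 pairs differed as above. This element, searched on both strands from 250 bases before to 50 bases after the start in RefSeq promoters of build GRCr8, was in 5 of 20 promoters of the Atf4 list (25.0%) and in 0.795% of 33469 promoters. The 5 belong to Chac1, Fgf21, Herpud1, Jdp2 and Nupr1, and of these genes Chac1 alone was called with BZP. A match is a description of the letters and not proof of a site. The 200 bases before the start of Chac1 (chr3:126795931-126796130, + strand) have it 167 bases upstream, in capitals.
Chac1: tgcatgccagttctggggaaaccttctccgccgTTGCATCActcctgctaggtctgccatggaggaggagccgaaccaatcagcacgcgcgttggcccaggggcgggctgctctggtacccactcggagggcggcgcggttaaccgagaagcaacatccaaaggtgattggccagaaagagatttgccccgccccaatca

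Growth and damage genes moved in part. Of 17 p53 targets 6 rose (35.3%) and 3 fell, and without pair 3 the counts were 2 and 0. Without pair 1 or pair 2, 1 and 0 were lower. Mdm2, the ubiquitin ligase that limits p53, read 9.89, 9.41 and 8.60 in controls and 10.71, 10.19 and 9.72 with BZP (0.91 ± 0.11; 1.88-fold; adjusted p = 7.73e-05), and Phlda3, an inhibitor of Akt, rose by 0.71 ± 0.14. Ccng1 (0.75 ± 0.19) was not called without pair 3, where it read 0.33, and Cdkn1a, a cell cycle inhibitor, stood at 0.17 ± 0.10, uncalled. Of 28 genes of DNA replication and mitosis 6 rose (21.4%) and 0 fell. Mcm6, a subunit of the replicative helicase, went from 5.13, 4.65 and 4.66 to 6.47, 5.87 and 5.83 with no overlap (1.25 ± 0.12; 2.37-fold; adjusted p = 7.89e-06), and Mcm4 rose by 0.95 ± 0.13. The mitotic kinases Aurka (0.72 ± 0.16) and Bub1 (0.67 ± 0.13) were called, Aurka not without pair 2 and Bub1 not without pair 1. Of 28 immediate early and growth response genes 3 rose (10.7%) and 1 fell (3.57%), with a median of 0.01, as for all genes. The risers were Klf4 (1.13 ± 0.25), Fosl1 (1.04 ± 0.25) and Klf6 (0.72 ± 0.20). Without pair 3 these 3 read 0.76, 0.87 and 0.43 and were not called. Fosl1 and Klf6 were not called without pair 2 either. Of 28 ribosome biogenesis genes 5 rose, all by 0.55 or less, and 3 without pair 2 and 0 without pair 3. Of 16 circadian clock genes 1 rose (6.25%, near the 6.66% of all genes) and 2 fell (12.5%), with a median of -0.08. The riser was Bhlhe40, a repressor tied to the clock and to hypoxia, at 1.29 ± 0.19 (adjusted p = 0.000455). Hlf, a clock-output factor of the liver, was among those that fell, at -1.28 ± 0.12 (adjusted p = 8.15e-06). Adm, the hypoxia-induced adrenomedullin, rose by 0.92 ± 0.12. Adm and Ndrg1 were the 2 of 25 glycolysis and hypoxia genes called higher (8.0%), and 3 were lower (12.0%). Without pair 1, 4 were higher.

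Genes of differentiated liver function fell in most groups. Breakdown of amino acids led, with 25 of 31 measured genes lower (80.6%, against 5.96% of all genes) and 0 higher, and a median of -0.90. Uroc1 of histidine breakdown read 7.74, 8.16 and 10.03 in controls and 5.98, 5.22 and 7.54 with BZP, Ftcd, the next folate-linked step, changed by -2.02 ± 0.19, and Aass, which opens lysine breakdown, by -1.85 ± 0.19. Of the kynurenine pathway, Kynu changed by -1.73 and Kmo by -1.20. Cbs, which commits homocysteine to cysteine, changed by -1.38. Constitutive cytochromes P450 fell in 14 of 19 genes (73.7%) and rose in 0, with a median of -0.92. Cyp2e1, which oxidises ethanol and small solvents, went from 12.03, 11.94 and 12.85 to 9.65, 9.59 and 11.54 (-2.01 ± 0.23; 4.04-fold lower; adjusted p = 4.1e-05), Cyp4f4 changed by -2.25 ± 0.25, Cyp2a1 by -2.12 ± 0.19 and Cyp2c11, the male-typical form, by -1.42. Members of these families resemble each other in sequence, so a probe set may read more than its named gene. Cyp2c23 (-1.45 ± 0.32) was not called without pair 1 or without pair 3. Of 27 conjugating (phase II) enzymes 15 fell (55.6%) and 2 rose. Nnmt changed by -1.32 ± 0.13 and Gsta3 by -1.31 ± 0.21, while Gstp1, a glutathione transferase low in healthy hepatocytes, rose by 0.84 ± 0.17. The 15 also count Gnmt (-1.49 ± 0.14), which methylates glycine rather than a foreign compound. Outside that list Gstt3, a theta-class transferase, fell from 9.24, 8.74 and 11.51 to 7.16, 6.97 and 9.26 (-2.03 ± 0.13; 4.1-fold lower; adjusted p = 8.87e-07).

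Fatty acid oxidation and PPAR alpha targets fell in 16 of 24 genes (66.7%) and rose in 0, with pair medians of -0.80, -0.77 and -1.08. Cyp4a1, a fatty acid hydroxylase, went from 8.23, 6.90 and 9.75 to 6.10, 5.35 and 6.95 (-2.16 ± 0.26; 4.47-fold lower; adjusted p = 7.38e-05), and Cyp4a3 changed by -2.13 ± 0.17. Ehhadh, the peroxisomal bifunctional enzyme, changed by -1.73 ± 0.18, Vnn1, a pantetheinase, by -1.46 ± 0.16, and Cpt1a, which admits fatty acids to mitochondria, by -1.07. Gluconeogenesis and glycogen genes fell in 6 of 13 (46.2%), with Gys2, the liver glycogen synthase, at -2.06 ± 0.24, Slc37a4, the glucose 6-phosphate carrier, at -1.37 ± 0.12, and Pc, the pyruvate carboxylase, at -1.30 ± 0.17. Of 9 urea cycle genes 5 fell (55.6%), 3 without any given pair. Otc, the ornithine transcarbamylase, went from 5.87, 6.23 and 7.40 to 4.63, 5.05 and 5.40 (-1.47 ± 0.27; adjusted p = 0.00263). Oxidative phosphorylation fell by small amounts in 10 of 28 genes (35.7%), led by Ndufb3 of complex I at -0.58 ± 0.11, and the count was 3 without pair 2 and 1 without pair 3.

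Secreted proteins fell too. Of 29 complement and coagulation genes 20 were lower (69.0%) and 0 higher, with pair medians of -0.53, -0.54 and -0.60. Plg, the plasminogen precursor, read 9.54, 10.57 and 10.72 in controls and 8.39, 9.60 and 9.63 with BZP (-1.07 ± 0.12; 2.1-fold lower; adjusted p = 4.7e-05). Klkb1, the plasma prekallikrein, changed by -1.27 ± 0.20, Mbl2, a mannose-binding lectin, by -1.17 ± 0.20, and Serpind1, heparin cofactor II, by -1.15 ± 0.22. Of 19 genes of lipoprotein assembly 11 fell (57.9%) and 1 rose, with Mttp, the triglyceride transfer protein, at -1.46 ± 0.16 (adjusted p = 3.87e-05), Lcat at -1.14 ± 0.14 and Apob at -0.96. Abca1, the cholesterol exporter, was the riser, at 0.58, and was not called without pair 2. Acute phase proteins moved less, with 3 of 21 lower (14.3%), led by Crp at -0.95 ± 0.13. Gjb1, the main gap junction protein of hepatocytes, changed by -1.03 ± 0.14. Against these falls, Ahsg (fetuin-A) rose by 0.44 ± 0.11, though not without pair 1 or pair 3.

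**Figure D3:**
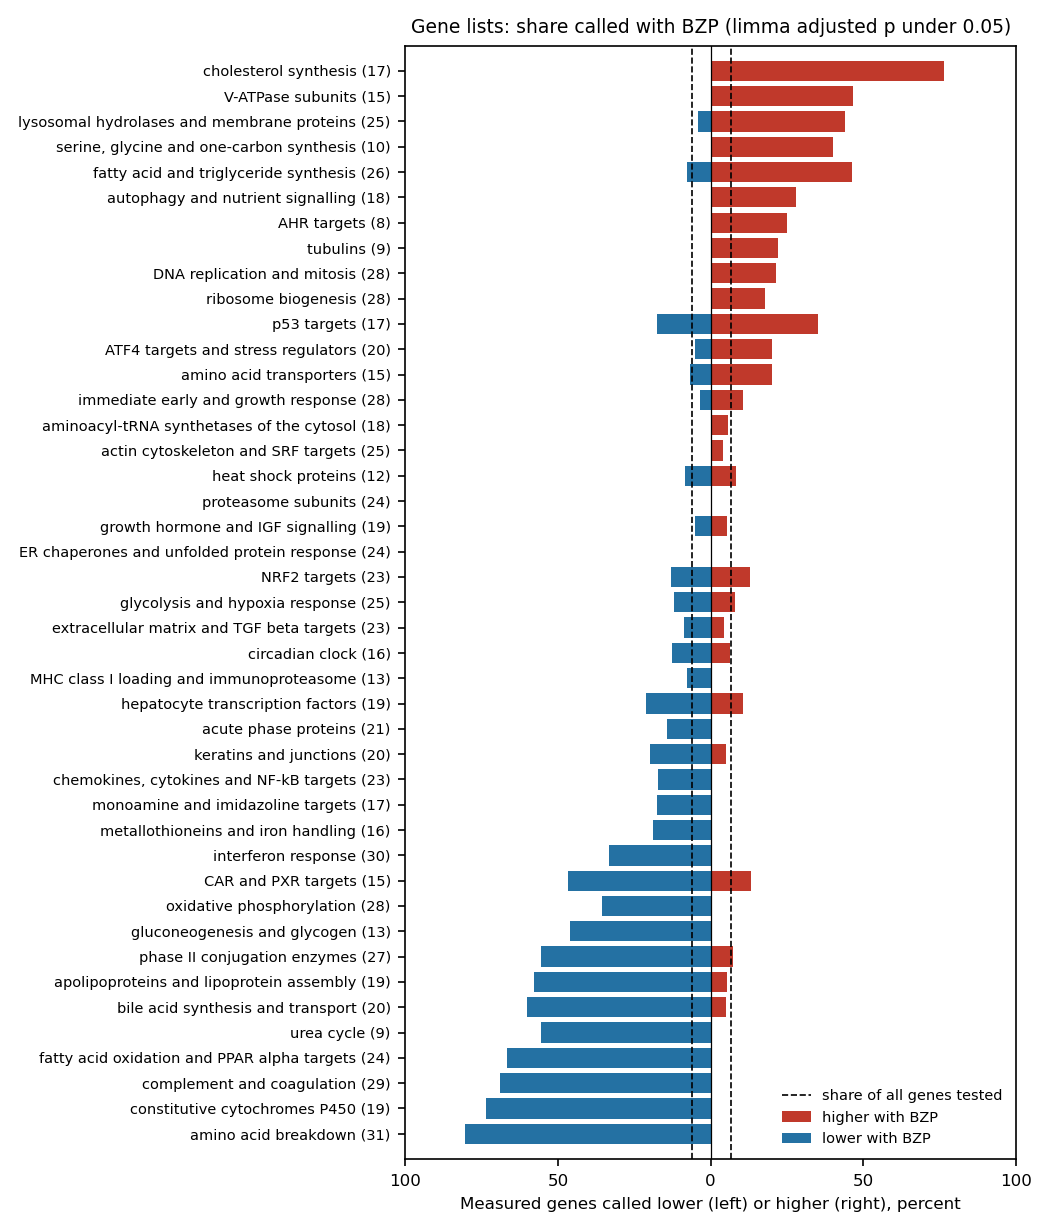
Share of the measured genes of each of 43 lists that limma called lower (bars to the left) or higher (bars to the right) with BZP, in percent, with the number measured in brackets and dashed lines at the shares of all genes (5.96% lower, 6.66% higher). Amino acid breakdown, at 80.6% lower, and cholesterol synthesis, at 76.5% higher, lie at the ends.

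Receptors and transcription factors that set drug handling also moved. The xenobiotic receptor CAR (Nr1i3) read 4.43, 5.68 and 7.52 in controls and 3.86, 3.74 and 4.63 with BZP (-1.80 ± 0.37; adjusted p = 0.00565), and without pair 3 it read -1.26 and was not called. Its relative PXR (Nr1i2) changed by -0.80. Of 15 genes of the list, which counts both receptors, 7 fell (46.7%) and 2 rose, and 4 were lower without pair 1 and 3 without pair 3. Cyp3a18 changed by -1.36 ± 0.21, and Cyp3a2 (-1.29 ± 0.29) and Cyp3a23-3a1 (-1.26 ± 0.24) each lost the call without a pair, Cyp3a2 without pair 1 or 3 and Cyp3a23-3a1 without pair 2. Of 8 genes of the aryl hydrocarbon receptor, Tiparp, a receptor-induced ADP-ribosyltransferase, rose by 0.69 ± 0.12 and Ahr by 0.45 ± 0.13, Ahr not without pair 1 or 2. The list count was 1 without pair 1, 1 without pair 2 and 4 without pair 3. Cyp1a1, its classic target, spread widely in the controls at 7.83, 9.60 and 10.14 against 10.15, 10.44 and 9.56 with BZP, a change of 0.86 ± 0.40 that did not pass (adjusted p = 0.225). It passed without pair 3, at 1.58. Of 23 NRF2 targets 3 rose (13.0%), 5 without pair 1, and 3 fell. Hmox1, the heme oxygenase, read 8.89, 9.92 and 7.62 in controls and 9.00, 10.67 and 8.26 with BZP (0.50 ± 0.16; adjusted p = 0.0657), and it passed without pair 1, at 0.70. The oxidoreductase Nqo1 stood at 0.39 ± 0.12, uncalled.

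BZP acts on monoamine systems elsewhere in the body, and 17 genes of monoamine handling were therefore read, of which 3 fell (17.6%) and 0 rose. Maob, the monoamine oxidase B, went from 8.04, 8.21 and 9.32 to 6.89, 6.61 and 7.92 (-1.38 ± 0.10; 2.61-fold lower; adjusted p = 2.15e-06), with the pair changes close together. Adra1b, the main alpha-1 adrenergic receptor of rat liver, went from 5.37, 5.11 and 7.46 to 4.47, 4.14 and 5.39 (-1.31 ± 0.22; adjusted p = 0.00115). Maoa read -0.44 ± 0.12 and was not called without pair 1 or 2. Slc6a2 and Slc6a3, the transporters of noradrenaline and dopamine, stood at -0.19 ± 0.12 and -0.02 ± 0.10, uncalled. Maob also fell with TFMPP, MeOPP and MDBP, at -1.01, -1.08 and -0.95. Adra1b stood at -0.64, -0.52 and -0.85 with these drugs, and of the 3 values that of MDBP was called.

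Some groups did not move as a group at this precision. Of 24 ER chaperone and unfolded protein response genes 0 were called, with pair medians of -0.29, -0.28 and 0.13, and 4 were lower with MDBP and 9 with MeOPP. Of 24 proteasome subunits 0 were called (median 0.09). Of 12 heat shock genes 1 rose (8.33%), Hspb8, and 1 fell (8.33%), Hspa1a (-1.11 ± 0.26). Hspb8 was not called without pair 2 or 3 and Hspa1a not without pair 1 or 3. Immunoproteasome and class I loading genes other than RT1-S3 were not called, with B2m at -0.06 ± 0.08 and Tap1 at 0.37 ± 0.14. In smaller groups a few members each were called, to be read beside 6.66% higher and 5.96% lower over all genes. Of 15 amino acid transporters 3 rose (20.0%), among them Slc1a4 (0.90 ± 0.18) and Slc6a9 (0.73 ± 0.16), and 1 fell (6.67%). The count of risers was 5 without pair 1 and 1 without pair 3. Slc1a4 was not called without pair 3 and Slc6a9 not without pair 2. Of 9 tubulins 2 rose (22.2%), led by Tubb6 (0.76 ± 0.17), which was not called without pair 2 or 3. The count was 5 without pair 1 and 0 without either of the others. Of 25 actin cytoskeleton genes 1 rose (4.0%, below the share of all genes), the crosslinker Actn1 (0.76 ± 0.14). Of 23 extracellular matrix genes 2 fell (8.7%), Col3a1 (-1.06 ± 0.13) and Sparc (-0.64 ± 0.11), and 1 rose (4.35%). Of 20 keratins and junction genes 4 fell (20.0%) and 1 rose (5.0%), and of 19 hepatocyte transcription factors 4 fell (21.1%) and 2 rose (10.5%). Of 16 metallothionein and iron genes 3 fell (18.8%), and of 23 chemokine, cytokine and NF-kB genes 4 fell (17.4%). Of 19 growth hormone and IGF genes 1 rose and 1 fell (5.26% each, below the shares of all genes). Without pair 3 the lower counts were 1 for the transcription factors, 0 for the metallothionein and iron genes and 0 for the chemokine group, which had 1 without pair 2. Of 9 hepatocyte markers 2 fell (22.2%) and 1 rose (11.1%), and 1 fell without any given pair. In the median over all probe sets the SE of a BZP change was 0.11 and its 95% confidence interval reached 0.24 to each side.

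The BZP response resembled those of the other drugs in direction and exceeded them in the number of calls. BZP changed 1795 genes (12.6%), MDBP 1383 (9.73%), MeOPP 1134 (7.98%) and TFMPP 367 (2.58%). Across 14217 genes the BZP changes correlated at 0.72 with those of TFMPP, 0.76 with MeOPP and 0.86 with MDBP. These comparisons share no array, but pairs of different drugs shared inferred preparations, and the values are given as a description. Of the 1383 genes called with MDBP, 1005 were also called with BZP, in the same direction in 1005 (72.7% of the MDBP calls and 56.0% of the BZP calls). With MeOPP the shared calls were 787 (69.4% and 43.8%), in the same direction in 787. With TFMPP they were 325 (88.6% and 18.1%), in the same direction in 323. Genes that rose with BZP had a median change of 0.52, against 0.25, 0.34 and 0.40 with TFMPP, MeOPP and MDBP, and genes that fell -0.63, against -0.36, -0.50 and -0.54, the BZP value being raised by the choice of these genes.

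The direct test of what set BZP apart was its change minus the mean of the other 3 drugs. In limma 0 of 31042 probe sets passed (0.0%), while 1801 had an unadjusted p under 0.05 (901 higher and 900 lower), with a median 95% interval of 0.27 to each side. The lowest adjusted p was 0.0878, for Irf9, Sdcbp2 and 1 probe set without a gene name. Against single drugs, 16 probe sets differed between BZP and TFMPP (0.0515%; 4 higher with BZP, 0.0129%, and 12 lower, 0.0387%), 0 between BZP and MeOPP (2151 at an unadjusted p under 0.05; lowest adjusted p 0.29), and 0 between BZP and MDBP (1150 at an unadjusted p under 0.05; lowest adjusted p 1.0). Pairwise 95% intervals, which are not adjusted for the number of probe sets, reached a median of 0.34 to each side. The adjusted threshold asked for more, and the smallest of the 16 called differences was 1.00 (Gpam). Sdcbp2 changed by 2.23 with BZP and 0.93 with MeOPP, and this difference did not pass. The 0 calls against MeOPP and MDBP thus do not exclude differences well above 0.34. BZP and TFMPP differ in that BZP joins its ring to the piperazine through a methylene bridge and TFMPP joins it directly and adds a trifluoromethyl group. They also differed in concentration (625 and 35 µM). The 16 did not pass without BZP pair 1 or without TFMPP pair 2 or 3, when 0 were called, and 34 passed without TFMPP pair 1.

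The 4 probe sets higher with BZP than with TFMPP were those of Sdcbp2, Dnase2b, Pvt1 and Gpam. Sdcbp2 changed by 2.23 with BZP, 1.35 with MDBP, 0.93 with MeOPP and 0.37 with TFMPP, a difference of 1.85 ± 0.25 from TFMPP (adjusted p = 0.0124). Its difference from the mean of the others was 1.34 ± 0.21. Within the inferred preparations of the BZP pairs it was 1.17 against the other 3 drugs (pair 1), 1.08 against TFMPP and MeOPP (pair 2) and 0.82 against MDBP alone (pair 3). Dnase2b, an acid nuclease, read 6.88, 6.66 and 6.72 in controls and 8.26, 8.01 and 7.55 with BZP (1.19 ± 0.13; adjusted p = 2.97e-05), 0.83 with MDBP, 0.54 with MeOPP and -0.21 with TFMPP. Pvt1, a long noncoding RNA, went from 6.10, 5.97 and 5.08 to 7.45, 7.16 and 6.54 (1.33 ± 0.14), against 0.98, 0.42 and 0.13 with MDBP, MeOPP and TFMPP. Gpam rose by 0.75 ± 0.12 with BZP and stood at 0.39, -0.12 and -0.25 with MDBP, MeOPP and TFMPP. In these 4 genes the order of the point estimates was BZP, MDBP, MeOPP, TFMPP, and no difference of BZP from MDBP or from MeOPP passed. The place of BZP above TFMPP in this order follows from the choice of the genes.

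**Figure D4:**
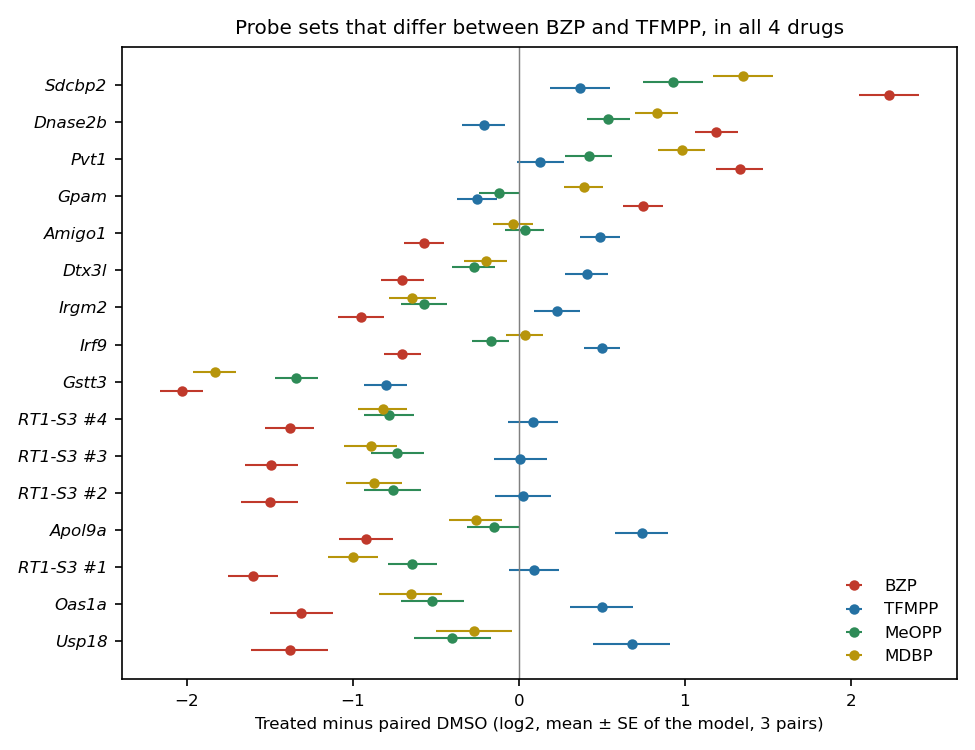
Change with each of the 4 drugs (treated minus paired DMSO, log2, model mean ± SE over 3 pairs) for the 16 probe sets that differed between BZP and TFMPP. RT1-S3 has 4 probe sets, numbered, and Sdcbp2 shows 2.23 with BZP against 0.37 with TFMPP.

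Of the 12 probe sets lower with BZP than with TFMPP, 3 are members of the interferon-response list (Irf9, Oas1a and Usp18) and 4 read RT1-S3. Interferons signal from the cell surface to the nucleus and switch on antiviral genes. Irf9, a DNA-binding factor of this response, read 6.66, 7.54 and 6.32 in controls and 5.92, 7.08 and 5.40 with BZP, lower in 3 of 3 pairs (-0.70 ± 0.11; 1.63-fold lower; adjusted p = 0.000472). With TFMPP it was higher, at 0.50 ± 0.11 (adjusted p = 0.0219), and it stood at -0.17 with MeOPP and 0.035 with MDBP. The difference from TFMPP was -1.20 ± 0.15 (limma adjusted p = 0.0103). Within the inferred preparations of the BZP pairs Irf9 differed by -0.76 from the other 3 drugs (pair 1), by -0.73 from TFMPP and MeOPP (pair 2) and by -1.06 from MDBP alone (pair 3). Of 30 measured interferon-response genes 10 fell with BZP (33.3%, against 5.96% of all genes) and 0 rose. The list median with BZP was -0.27 (pairs -0.33, -0.56 and -0.30), 0.42 with TFMPP (pairs -0.15, 0.83 and 0.56), -0.05 with MeOPP and 0.02 with MDBP. In the difference from the mean of the others, 14 of the 30 were lower at an unadjusted p under 0.05 (3.07% of all genes were) and 0 higher (2.93%), and 0 passed the adjusted threshold. The list was chosen after these genes had been seen to differ in these arrays, so its counts are a description and not independent evidence. Without pair 1, 2 or 3, 9, 8 and 8 of the genes were lower.

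Isg15, a ubiquitin-like antiviral protein, went from 8.48, 9.56 and 7.85 to 6.48, 8.71 and 6.38 (-1.44 ± 0.29; 2.71-fold lower; adjusted p = 0.00432). Usp18, which strips Isg15 from its targets, went from 7.88, 9.29 and 7.76 to 5.67, 8.11 and 7.01 (-1.38 ± 0.23; adjusted p = 0.00102). Mx2, a dynamin-like GTPase, went from 5.97, 7.97 and 5.39 to 4.47, 6.05 and 4.54 (-1.42 ± 0.28; adjusted p = 0.00382), and Oas1a, an oligoadenylate synthetase, from 6.38, 7.61 and 7.28 to 5.33, 6.38 and 5.65 (-1.31 ± 0.19; adjusted p = 0.000409). In each of these genes the control of pair 2 was the highest, and the groups overlap across pairs while every pair fell. Rtp4 changed by -1.11 ± 0.20, and Rig1 (also called Ddx58), a cytosolic RNA sensor, by -1.01 ± 0.19. A second sensor, Ifih1, changed by -1.03 ± 0.21, the regulator Irf7 by -0.97 ± 0.26 and the chemokine Cxcl11 by -0.72 ± 0.18. Ifih1 was not called without pair 2, Irf7 without pair 1 or 3, and Cxcl11 without pair 2 or 3. The remaining 20 members were uncalled, among them Ifit2 at 0.24 ± 0.30, Rsad2 at 0.29 ± 0.41, Stat2 at -0.03 ± 0.16 and Irf1 at 0.06 ± 0.13. Outside the list, Apol9a, an apolipoprotein L gene, changed by -0.92 ± 0.16 with BZP and 0.74 with TFMPP, Dtx3l, a ubiquitin ligase, by -0.70 ± 0.13 and 0.41, and Irgm2, an immunity-related GTPase, by -0.95 ± 0.14 and 0.23. Amigo1, a neuronal adhesion protein, changed by -0.57 ± 0.12 and 0.49, with the BZP change not called without pair 3. Irgm2 also fell with MeOPP and MDBP, at -0.57 and -0.64, both called. In the same order Oas1a read -0.52 and -0.65, Usp18 -0.40 and -0.27, and Apol9a -0.15 and -0.26. Dtx3l read -0.27 and -0.20 and Amigo1 0.035 and -0.033, and none of these values was called. Gstt3 was called lower with TFMPP, MeOPP and MDBP too, at -0.80, -1.34 and -1.83. The class I gene RT1-S3 was lower with BZP on each of its 4 probe sets, by -1.38 to -1.60, and lower with MeOPP and MDBP, while TFMPP stood at 0.0083 to 0.092. Rat class I genes are near-identical in sequence, so these probe sets may read other members of the family. Markers of Kupffer cells and leukocytes, which also carry interferon-response genes, had median changes of -0.27, -0.11, -0.07 and -0.47 with BZP, TFMPP, MeOPP and MDBP in turn, and their part in the result was not tested.

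**Figure D5:**
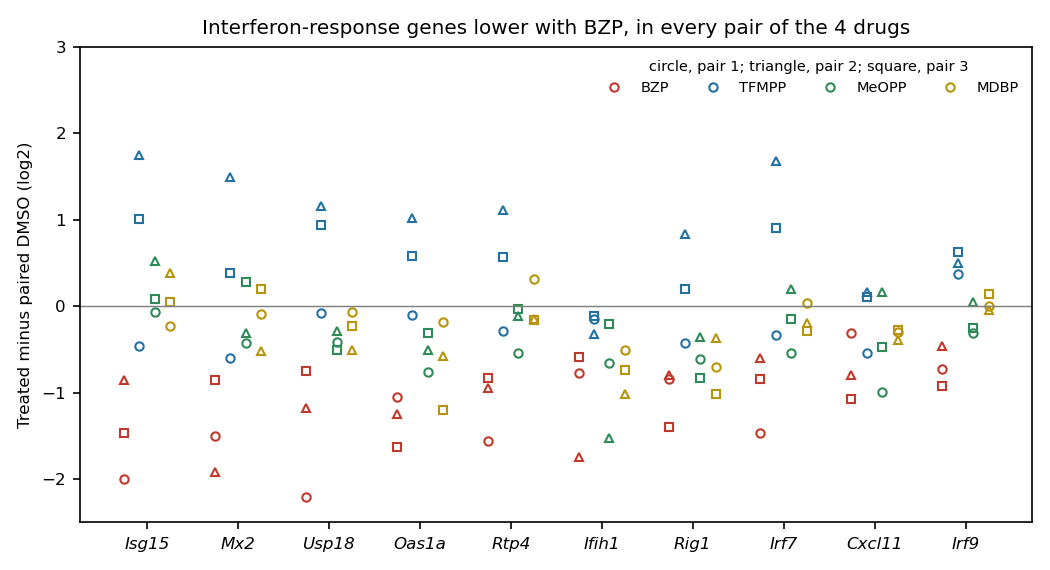
Change in each of the 3 pairs of each drug (treated minus paired DMSO, log2) for the 10 interferon-response genes that fell with BZP. The BZP symbols lie below 0 in every pair, and the TFMPP symbols of pairs 2 and 3 lie above those of BZP.

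Promoters of members that moved are shown because interferon-response promoters are known for a shared sequence element. The core of the interferon-stimulated response element, the letters GAAA, any 2 bases and GAAA again (TTTC, any 2 bases and TTTC on the other strand), was searched over the same window as above, a choice made after the data were seen. It was in 15 of 22 promoters of the interferon list that RefSeq gave (68.2%) and in 1312 of 33469 promoters (3.92%). Of the 10 interferon genes that fell, 5 had a promoter in the table and 3 of these a match. Irf9 and Cxcl11 had no match, which says only that these letters are not in the window. Each line gives the 200 bases before the start, with the matched letters in capitals, for Oas1a (chr12:41330266-41330465, + strand), Ifih1 (chr3:67683969-67684168, - strand), Irf7 (chr1:205800024-205800223, - strand) and Apol9a (chr7:111028214-111028413, - strand), all in GRCr8.
Oas1a: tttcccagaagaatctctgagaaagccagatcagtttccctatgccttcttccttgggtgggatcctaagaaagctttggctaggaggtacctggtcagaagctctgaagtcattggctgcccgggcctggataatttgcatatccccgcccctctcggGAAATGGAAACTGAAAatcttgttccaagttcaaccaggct
Ifih1: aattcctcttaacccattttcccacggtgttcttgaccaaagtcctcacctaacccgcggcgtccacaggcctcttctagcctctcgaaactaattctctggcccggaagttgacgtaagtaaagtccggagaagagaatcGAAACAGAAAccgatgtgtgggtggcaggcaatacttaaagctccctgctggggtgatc
Irf7: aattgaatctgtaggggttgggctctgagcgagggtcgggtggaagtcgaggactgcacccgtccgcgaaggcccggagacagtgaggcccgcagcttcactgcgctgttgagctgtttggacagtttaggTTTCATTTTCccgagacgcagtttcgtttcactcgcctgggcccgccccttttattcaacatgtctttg
Apol9a: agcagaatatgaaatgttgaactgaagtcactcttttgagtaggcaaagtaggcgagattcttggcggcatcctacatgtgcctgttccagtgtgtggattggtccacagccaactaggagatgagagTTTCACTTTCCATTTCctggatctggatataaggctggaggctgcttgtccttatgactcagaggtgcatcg
Oas1a has 2 overlapping matches, 41 and 35 bases before the start, and Apol9a 2, at 72 and 66. Ifih1 and Irf7 have 1 each, at 59 and 69.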

How the data were processed

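Total RNA from 24 hepatocyte samples was read on Affymetrix rat arrays. The deposited values are log2 expression values made by the authors with RMA, per the submitters' processing notes (version not given in the sources used here). RMA quantile-normalizes the arrays, so a shift common to most genes would not be seen. They cover 31099 probe sets, and array precision is limited by the number of arrays, 3 pairs a drug.

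Of 31042 probe sets that are not controls, 20826 had 1 gene symbol in the platform annotation, 436 several and 9780 none, and 0 symbols needed an update against RefSeq. For each gene the probe set with the highest mean was kept, which left 14217 genes. Of 4525 genes with several probe sets, 3 had probe sets called in opposite directions with BZP.

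One limma model (limma 3.58.1 in R 4.3.3, eBayes) was fitted to the 24 arrays with a term for each of the 12 pairs and for each of the 4 drugs, and p-values were adjusted by Benjamini and Hochberg over 31042 probe sets. The control titles name the treated sample they belong to. Treated and control arrays of a pair deviated together, with correlations of 0.612 to 0.802 in the 12 pairs. Control arrays were clustered by their correlations into 5 groups that drugs shared, taken as preparations. The number 5 was set for the clustering, and the labels name no preparation. Correlations were 0.9943 to 0.9971 within groups and 0.9622 to 0.9919 between them. The groups were formed from these same correlations, so the gap is no separate evidence for them. Within BZP each pair lay in a group of its own, so the pair changes are the values within inferred preparations. No array was identical to another.

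The text names the 15 largest rises and falls that were called and moved the same way in 3 pairs, up to 4 called members of each list with the largest change, and a few fixed genes. The other list members named, and the probe sets that differed from TFMPP, were chosen after their values were seen. The members and the 43 pathway and 5 marker lists were chosen with earlier results of these data known. The response element of interferon genes was added after the data were examined. Promoters come from RefSeq (GRCr8). The fit and the counting were tested on simulated data. The alternatives tried are given at the end with their effect.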

Additional observations from a re-analysis of the deposited data

Results flagged for a closer look

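A tested difference between the BZP and TFMPP responses (BZP minus TFMPP, log2, limma adjusted p under 0.05) singled out 16 probe sets. Lower with BZP were Usp18 (-2.06), Oas1a (-1.81), Apol9a (-1.66), Gstt3 (-1.24), Irf9 (-1.20), Irgm2 (-1.19), Dtx3l (-1.11), Amigo1 (-1.06) and the 4 probe sets of RT1-S3 (-1.69, -1.52, -1.50 and -1.47). Higher with BZP were Sdcbp2 (1.85), Dnase2b (1.40), Pvt1 (1.20) and Gpam (1.00). The drugs were given at 625 and 35 µM, so compound and concentration cannot be told apart.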

How the results depend on the processing

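Of 2867 probe sets called with BZP, 2644 were also called after a further quantile normalization and 2763 with the trend and robust settings of eBayes. With the 12 DMSO arrays as 1 control group the count was 386 (265 higher, 121 lower), with the BZP arrays alone 1063 (429 higher, 634 lower), and with no replicate block 38 (26 higher, 12 lower). The replicate block is the pairing that the control titles give, and 5 of 173 called named genes passed without it. Leaving out single BZP pairs gave 1461 to 2464 calls, 673 to 1302 higher (920 without pair 2) and 788 to 1162 lower, of which 2067, 1570 and 1324 were among the 2867 without pair 1, 2 and 3. BZP minus the mean of the other drugs gave 1 call with the inferred preparation as a block and 1 after quantile normalization. It gave 0 to 10 when a pair was left out (2 without MeOPP pair 2, 10 without TFMPP pair 1). BZP minus TFMPP gave 0 with pooled DMSO, 0 with no replicate block, 10 after quantile normalization and 0 to 34 when a pair was left out, and BZP minus MeOPP 0 to 1 (1 without MeOPP pair 2). BZP minus MDBP gave 0 in every leave-one-out fit. Ddit3, not called at 0.05, read -0.27 with pooled DMSO and from -0.31 (without pair 3) to 0.29 (without pair 2) when a BZP pair was left out. The leave-one-out and BZP-only fits hold fewer arrays. Why the counts differed between settings was not tested.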
